A study of Mus musculus with 5 samples.

Results

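The respiratory chain genes were taken from the table by name. Every gene whose symbol begins with Nduf, Uqcr, Atp5, Cox4i, Cox5, Cox6, Cox7 or Cox8 was included, with Sdha, Sdhb, Sdhc, Sdhd and Cyc1. This gave 90 genes of 22885 symbols, from 99 transcript rows of 28644; where a gene had several rows, the row with the highest mean count stood for it. Of the 90, 83 encode subunits of complexes I to V and 7 are assembly or other factors that share the prefix. RNA came from intervillus cells of the proximal jejunum, cut by laser from paraffin sections of mice at postnatal day 0. Control mice carried the genotype Dnmt1 L/+ (3 libraries, numbered 1, 2 and 3) and mutant mice Dnmt1 L/L; VillinCre (2 libraries, numbered 4 and 6). The Villin promoter drives Cre in the gut epithelium, so other cells caught by the laser would keep the gene. Areas without Ki67 staining were cut from mutants and areas with it from controls, so genotype and the state of the chosen area cannot be told apart in any value below. Sex, as read from the sex-linked transcripts given below, also ran with genotype in all libraries and cannot be told apart from it either. The labels do not say that each library is a separate mouse, and the p-values then reflect only how far these libraries spread, perhaps for technical reasons.

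The respiratory chain sits in the inner mitochondrial membrane. Complex I takes electrons from NADH and complex II from succinate, and both hand them to ubiquinone. Complex III passes them on to cytochrome c and complex IV to oxygen, while complex V, the ATP synthase, uses the proton gradient built by complexes I, III and IV. Most subunits are encoded in the nucleus, and a small core of complexes I, III, IV and V is encoded by mitochondrial DNA; those mitochondrial genes were not analysed here. The transcription factors NRF1, GABPA and YY1 are known regulators of nuclear respiratory genes. Intestinal epithelial cells raise their mitochondrial activity as they leave the proliferating zone.

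Of the 90 genes, 74 had an entry in the RefSeq promoter table of build GRCm38.p6 (250 bases before to 50 after a gene's start; the first start listed per gene was used), and the shares below are over these 74. A 9-letter core of the NRF1 motif, GCGCATGCG, on either strand, was in 9 of the 74 (12.2%) and in 1.81% of all 27025 promoters of the same length. For YY1 the letters AAGATGGCG were in 7 (9.46%, against 1.49% of all promoters), and for GABPA the letters CCGGAAGT were in 5 (6.76%, against 4.00%). In the palindrome that holds the NRF1 core, both strands match at overlapping letters and were counted as 1 promoter. These are letter matches and no measure of binding. The first set of promoters shows the gene nearest to a call, Ndufa1, which held none of the 3, beside Ndufa11 and Cox6a1, which held the NRF1 letters, and Cox8a, which held the GABPA letters at 2 places. Capitals mark the matched letters.

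The Ndufa1 promoter lies at chrX:37191189-37191488 on the minus strand, that of Ndufa11 at chr17:56717512-56717811 on the plus strand, that of Cox6a1 at chr5:115348909-115349208 on the minus strand and that of Cox8a at chr19:7217567-7217866 on the minus strand, all in GRCm38.p6 and printed 5′ to 3′ of the gene.
Ndufa1: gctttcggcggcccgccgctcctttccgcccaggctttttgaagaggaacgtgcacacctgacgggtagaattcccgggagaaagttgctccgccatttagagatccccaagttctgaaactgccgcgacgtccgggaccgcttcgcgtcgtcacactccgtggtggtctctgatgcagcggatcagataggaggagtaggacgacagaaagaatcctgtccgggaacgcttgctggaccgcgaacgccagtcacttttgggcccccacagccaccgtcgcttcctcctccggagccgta
Ndufa11: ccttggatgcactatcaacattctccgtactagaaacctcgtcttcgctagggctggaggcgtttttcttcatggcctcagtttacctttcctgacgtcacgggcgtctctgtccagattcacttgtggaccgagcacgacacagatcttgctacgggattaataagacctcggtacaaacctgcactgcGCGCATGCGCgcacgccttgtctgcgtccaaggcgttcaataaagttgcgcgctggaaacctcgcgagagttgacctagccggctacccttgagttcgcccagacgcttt
Cox6a1: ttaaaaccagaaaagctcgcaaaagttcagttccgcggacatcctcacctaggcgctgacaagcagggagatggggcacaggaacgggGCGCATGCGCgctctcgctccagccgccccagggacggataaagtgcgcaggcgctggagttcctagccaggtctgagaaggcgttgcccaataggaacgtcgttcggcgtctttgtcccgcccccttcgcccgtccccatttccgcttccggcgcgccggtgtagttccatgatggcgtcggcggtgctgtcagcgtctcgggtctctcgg
Cox8a: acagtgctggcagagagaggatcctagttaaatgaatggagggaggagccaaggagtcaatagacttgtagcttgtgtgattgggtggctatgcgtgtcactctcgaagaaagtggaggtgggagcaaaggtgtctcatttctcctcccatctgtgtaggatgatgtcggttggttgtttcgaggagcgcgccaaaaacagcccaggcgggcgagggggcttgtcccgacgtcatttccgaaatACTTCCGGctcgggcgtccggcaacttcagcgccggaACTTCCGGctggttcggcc

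The other pair sets the widely expressed Cox6b1 beside its testis form Cox6b2, since Dnmt1 acts on the CpG dinucleotides that are in capitals. The Cox6b1 window (chr7:30626065-30626364, minus strand) held 17 CpGs and that of Cox6b2 (chr7:4753045-4753344, minus strand) 10. Among the 70 genes with a promoter entry that are not tissue forms of complex IV, the median was 20 CpGs (5 to 43), and the 4 tissue forms with an entry held 2 to 10, where the median of all promoters was 7. DNA methylation itself was not measured here.
Cox6b1: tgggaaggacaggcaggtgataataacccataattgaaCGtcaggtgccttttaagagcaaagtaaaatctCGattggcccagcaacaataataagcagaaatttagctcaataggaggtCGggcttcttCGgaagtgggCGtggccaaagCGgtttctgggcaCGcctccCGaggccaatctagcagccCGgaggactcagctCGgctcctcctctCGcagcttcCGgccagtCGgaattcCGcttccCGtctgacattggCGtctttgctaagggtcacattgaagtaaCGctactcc
Cox6b2: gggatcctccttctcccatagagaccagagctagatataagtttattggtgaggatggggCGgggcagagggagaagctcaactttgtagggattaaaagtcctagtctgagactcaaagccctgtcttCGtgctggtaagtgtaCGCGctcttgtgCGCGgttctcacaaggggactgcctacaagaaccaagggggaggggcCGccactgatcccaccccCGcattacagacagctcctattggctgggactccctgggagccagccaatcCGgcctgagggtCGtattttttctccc

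No respiratory chain gene was called higher or lower in the mutants. Of the 90 genes, 86 passed the filter on low counts and were tested with edgeR's quasi-likelihood test, and 0 had an adjusted p under 0.05 (Benjamini-Hochberg over 19353 transcript rows). Over all 14586 genes tested in the same fit, with 1 row per gene, 6.11% were called higher and 4.17% lower. At an unadjusted p under 0.05, 6 of the 86 members were higher (Ndufa1, Ndufa11, Ndufa7, Ndufb7, Cox6a2 and Ndufa4l2) and 0 lower. Of all 14586 genes tested, 1976 were higher and 1756 lower at the same threshold. DESeq2 called 1 member, Ndufa1, and limma-voom called 0. Left out by the filter were Cox4i2, Cox7b2, Cox8b and Cox8c, all tissue forms of complex IV with at most 11 counts in any library. The median log2 fold change, mutant over control, was 0.11 over the 86 members and -0.01 over all genes tested. Values were above 0 in 66 of the 86 members, against 7181 of all 14586 genes tested. In this bulk RNA, a change in the number of cells of a type and a change in RNA per cell cannot be told apart.

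The intervals show what size of change these libraries leave room for. The 95% interval of the log2 fold change (per gene, from edgeR's standard error, not adjusted for the number of genes) lay within -1 and 1 in 78 of the 86 genes, so that a 2-fold change lay outside it, and within a 1.5-fold change in 55. The 8 genes with wider reach were Ndufaf2, Ndufa1, Ndufs5, Cox6a2, Cox6b2, Ndufa4l2, Atp5g2 and Atp5s. CPM (counts scaled to the TMM library size) are given below; of the 8, only Ndufa1 exceeded 24.6 CPM in any library. Both mutants lay above all controls in 12 members (13.95%), against 21.7% of all genes tested, and below all controls in 3 (3.49%), against 21.8%. Separation of the groups was thus less frequent among the members than in the background, which is given as a count and was not tested.

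**Figure D1:**
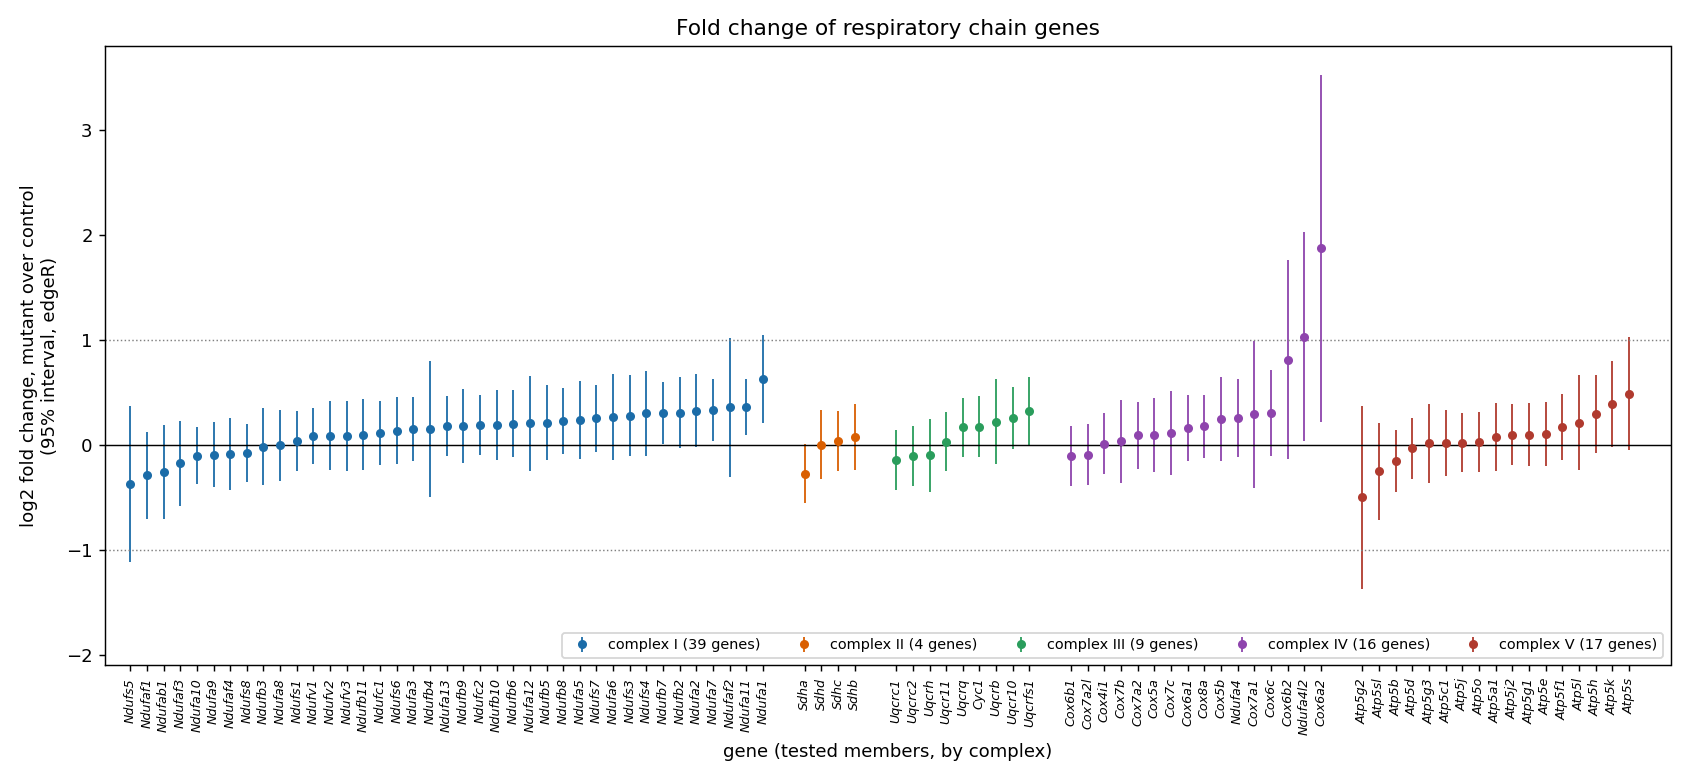
Log2 fold change (mutant over control) of the 86 tested genes, 1 of them not drawn, on the vertical axis, ordered within each complex; points are edgeR estimates and bars their 95% intervals, dotted lines mark a 2-fold change, and genes of assembly and other factors are drawn with the complex their symbol names. Most points lie between -0.5 and 0.5 with bars that cross 0, and the widest bars belong to low-count genes such as Cox6a2 and Atp5g2.

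Complex I subunits had a median log2 fold change of 0.18 (36 tested, -0.37 to 0.63), complex II 0.02 (4 tested, -0.27 to 0.07) and complex III 0.17 (9 tested, -0.15 to 0.32). For complex IV the median was 0.18 (15 tested of 19, -0.10 to 1.87) and for complex V 0.08 (15 tested, -0.50 to 0.39). Summed over its subunits, complex I was at 2938, 3692 and 3015 CPM in the controls against 3306 and 3879 CPM in the mutants. Complex II was at 1117, 1258 and 1141 CPM in controls against 1016 and 1212 CPM in mutants. Complex V was at 5766, 6800 and 6346 CPM in controls against 5729 and 6795 CPM in mutants. Mutant and control libraries overlapped in each of these sums, and the differences between complexes were not tested, since they rest on the same 5 libraries.

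The order of the libraries within a group was shared by most members. Control 2 was the highest control in 67 of the 86 genes and mutant 6 lay above mutant 4 in 78; both held in 62 (72.1%), against 21.4% of the other 14500 genes tested. Complex I subunits showed control 2 highest in 32 of 36, and complex V subunits showed mutant 6 above mutant 4 in 15 of 15. Transcripts of these genes are short, from 315 to 3632 bases with a median of 752 in the matched GENCODE transcripts. Among other genes with transcripts under 1000 bases the same order held in 35.8%, among members of that length in 75.9% (41 of 54), and among members of 1000 bases or more in 65.6% (21 of 32). The median over members of log2 CPM relative to the control mean was -0.13, 0.17 and -0.05 in controls 1, 2 and 3 and -0.01 and 0.27 in mutants 4 and 6, so libraries of 1 group differed by more than the groups did. What sets control 2 and mutant 6 apart was not tested.

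Results for the members depended on these libraries. Without control 2, 8 of 86 members were called higher (Atp5h, Cox6a2, Cox6c, Ndufa1, Ndufa2, Ndufa6, Ndufa7 and Ndufs4), and the median over members was 0.22. In that fit 7.31% of all 14458 genes tested were called higher. Without mutant 6 the median was -0.01 with 0 calls, without mutant 4 it was 0.27 with 0 calls, and without control 1 it was 0.06 with 0 calls.

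**Figure D2:**
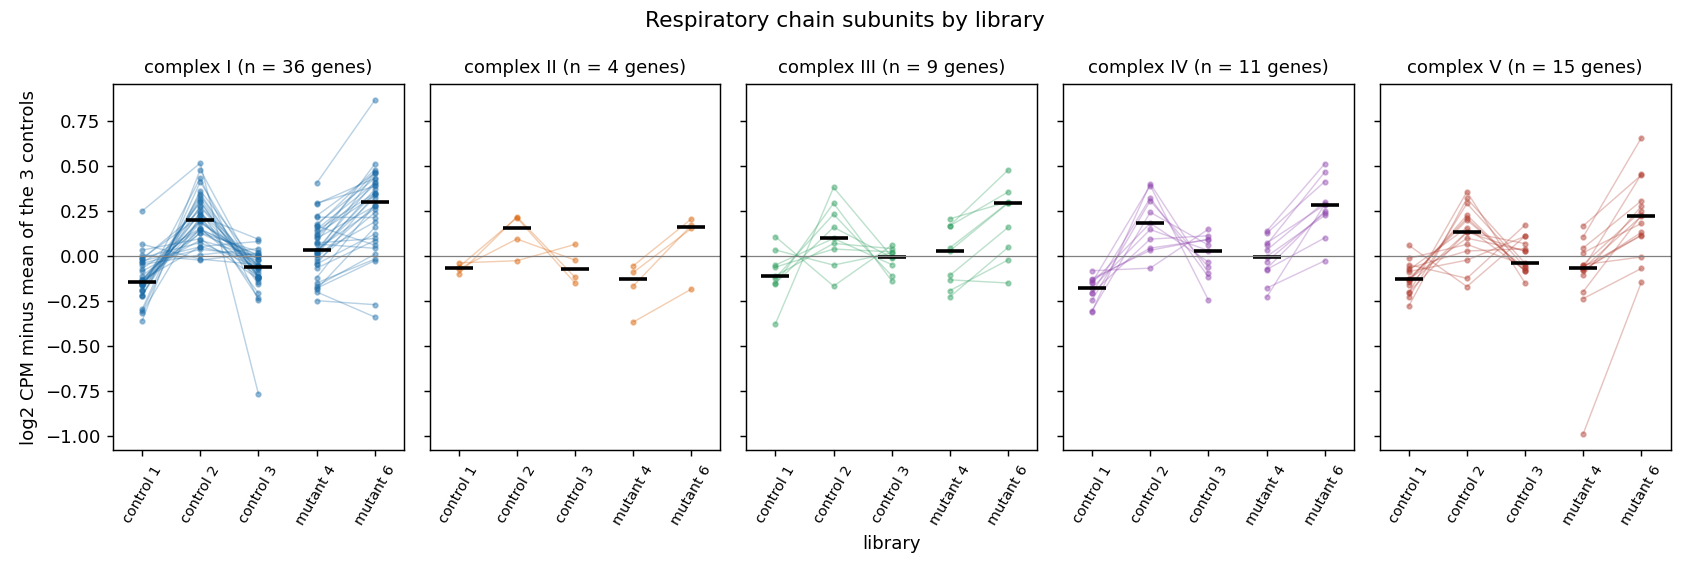
Log2 CPM of each tested subunit minus its mean over the 3 controls (vertical axis), by library (horizontal axis), in 1 panel per complex without the tissue forms of complex IV; thin lines join the values of a gene within a group and black bars are medians. Control 2 and mutant 6 stand highest in every panel, and mutant 4 lies near the controls.

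In complex I, the flavin and iron-sulfur core that carries electrons from NADH had 0 calls among its 7 genes. In CPM, 2 of them, Ndufs3 and Ndufv1, had both mutants above all controls (28.6%, against 21.7% of all genes tested). On the deposited FPKM (fragments scaled to transcript length and library depth) the groups overlapped in Ndufs3 and Ndufv1. Ndufs1, the core's largest iron-sulfur subunit, was at 149, 170 and 141 CPM in the controls against 148 and 166 CPM in the mutants. The groups overlapped, with a log2 fold change of 0.04 ± 0.13 (SE). Ndufv1, the flavoprotein that binds NADH, was at 100, 94.6 and 92.6 CPM in controls against 101 and 102 CPM in mutants (0.08 ± 0.12). Its mutants lay just above its controls, by less than its standard error. The 7 core genes had log2 fold changes from -0.08 to 0.28, and 0 of them reached an unadjusted p under 0.05.

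Among the supernumerary subunits of complex I, which surround and stabilise the core, Ndufa1 came nearest to a call. It is a small membrane subunit needed for assembly of the complex, encoded on the X chromosome. Its level was 32.2, 51.3 and 38.4 CPM in controls 1, 2 and 3 against 52.7 and 72.5 CPM in mutants 4 and 6. Both mutants lay above all controls, mutant 4 only just above control 2. The log2 fold change was 0.63 ± 0.20 (SE; 95% interval 0.21 to 1.05; edgeR adjusted p = 0.0587). Adjusted p-values over its alternatives ran from 0.0021 (no filter on low counts) to 0.432 (without mutant 6), and Ndufa1 was called in 5 of 16. Ndufa1, Ndufa7, Ndufa11, Ndufb7 and the other members outside the naming rule were chosen after their values were seen.

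The sex-linked transcripts divided the libraries along the line of genotype. Xist, made from the inactive X chromosome, had 66, 72 and 42 counts in the controls against 10179 and 8277 in the mutants, and the Y-linked Ddx3y had 757, 764 and 791 in the controls against 1 and 0 in the mutants. By these transcripts the controls read as male and the mutants as female. The part of sex in the value of Ndufa1, or of any other gene here, cannot be told apart from genotype. The other X-linked members had smaller log2 fold changes: Ndufb11 was at 102 CPM in controls against 109 CPM in mutants (0.10 ± 0.16 on the log2 scale), and Cox7b, of complex IV, at 354 and 363 CPM (0.03 ± 0.18).

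Ndufa11, a membrane subunit between the arms of complex I, was at 98.5, 104 and 102 CPM in controls against 124 and 137 CPM in mutants. The groups were separate and each was tight, but the difference missed the threshold (0.36 ± 0.12; edgeR adjusted p = 0.0823). Ndufa7 was at 80.8, 101 and 85.0 CPM in controls against 109 and 116 CPM in mutants (0.33 ± 0.14; edgeR adjusted p = 0.144). Ndufb7 was at 75.2, 87.5 and 74.8 CPM in controls against 89.3 and 106 CPM in mutants (0.31 ± 0.14; edgeR adjusted p = 0.182). In both genes mutant 4 stood close to control 2. Of the 29 supernumerary subunits, 23 had a positive and 6 a negative log2 fold change, with a median of 0.19. Ndufab1, the mitochondrial acyl carrier protein, had both mutants below all controls, at 12.8, 13.5 and 12.8 CPM against 10.97 and 10.8 CPM (-0.26 ± 0.21). The assembly factor Ndufaf1 did too, at 16.4, 18.9 and 16.3 CPM against 14.3 and 13.8 CPM (-0.29 ± 0.19), while the other 3 Ndufaf genes overlapped.

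Complex II, succinate dehydrogenase, is shared with the citric acid cycle. Its flavoprotein Sdha was at 421, 424 and 452 CPM in the controls against 335 and 380 CPM in the mutants, both below all controls (-0.27 ± 0.13 on the log2 scale; edgeR adjusted p = 0.206). The interval, -0.55 to 0.01, just reached 0. The iron-sulfur subunit Sdhb was at 184, 223 and 173 CPM in controls against 185 and 222 CPM in mutants, which overlapped (0.07 ± 0.15). The membrane anchors Sdhc and Sdhd gave 0.03 ± 0.13 and 0.00 ± 0.15. Adjusted p-values for Sdha ran from 0.172 to 0.645 over its 16 alternatives, and it was called in 0.

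In complex III, Cyc1 (cytochrome c1) and the Rieske iron-sulfur protein Uqcrfs1 carry the electrons. Uqcrfs1 was at 179, 229 and 181 CPM in controls against 219 and 271 CPM in mutants, with mutant 4 below control 2 (0.32 ± 0.15; edgeR adjusted p = 0.199). Cyc1 was at 328, 363 and 328 CPM in controls against 350 and 416 CPM in mutants (0.17 ± 0.13). The small subunit Uqcr10 had both mutants above all controls, at 273, 338 and 301 CPM against 340 and 387 CPM, with mutant 4 almost level with control 2 (0.26 ± 0.14; edgeR adjusted p = 0.254). The core proteins Uqcrc1 and Uqcrc2 were on the other side of 0, at -0.15 ± 0.13 and -0.11 ± 0.13, and so was the hinge protein Uqcrh (-0.10 ± 0.16).

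**Figure D3:**
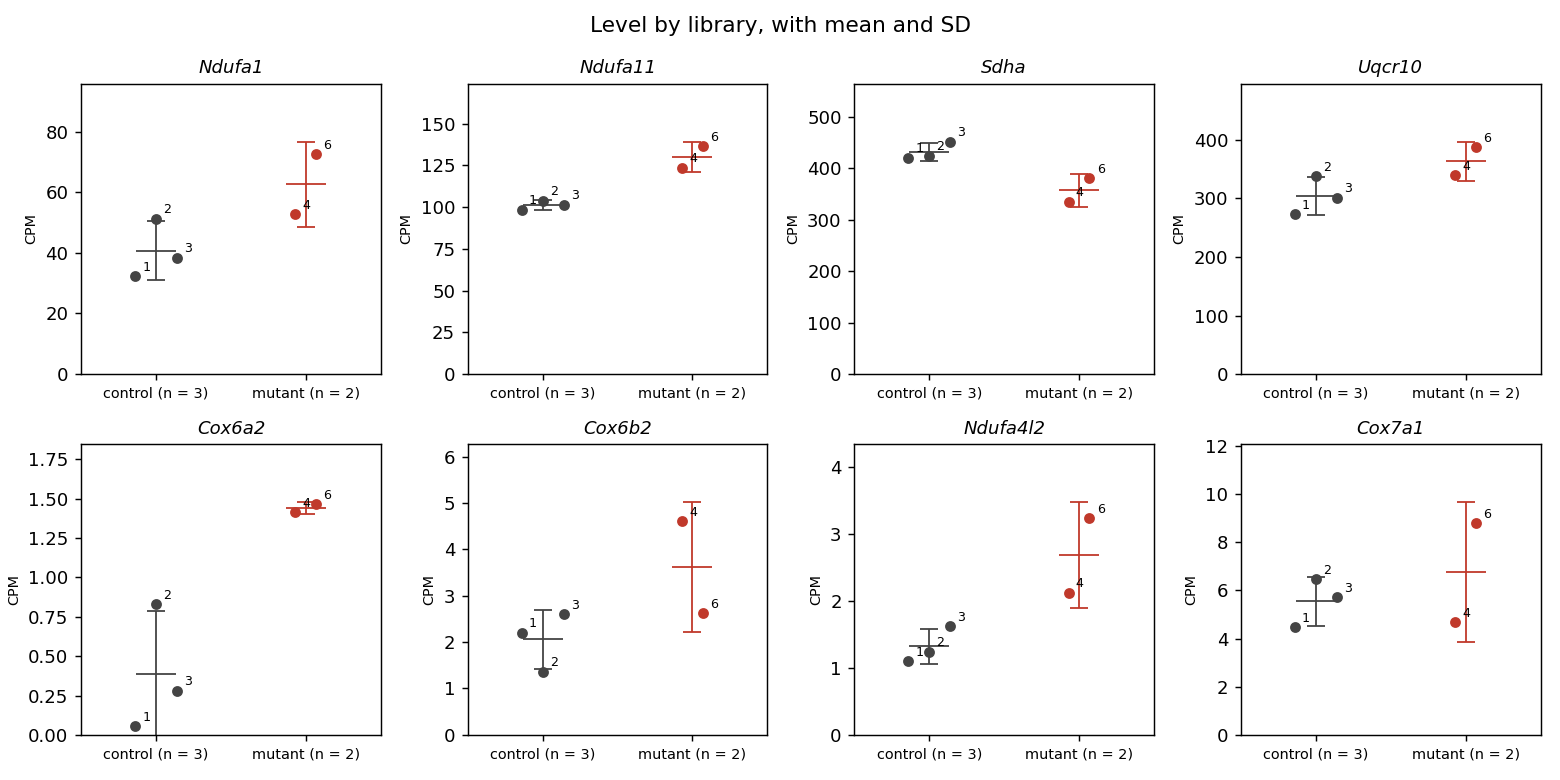
CPM by library for 8 members (vertical axes from 0, each on its own scale); points are libraries with their numbers, horizontal bars the mean and error bars the SD of 3 controls and 2 mutants. Ndufa1, Ndufa11 and Uqcr10 have both mutants above the controls and Sdha has both below, while Cox7a1 overlaps.

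In complex IV, cytochrome c oxidase, the 11 widely expressed subunits ran from -0.10 to 0.31 log2 units with 0 unadjusted calls. Cox4i1, which is needed early in assembly, was at 570, 636 and 663 CPM in controls against 590 and 667 CPM in mutants (0.01 ± 0.13). Cox5a was at 220, 321 and 283 CPM in controls against 265 and 320 CPM in mutants (0.09 ± 0.16). Cox6a1 was at 423, 521 and 528 CPM in controls against 499 and 601 CPM in mutants (0.16 ± 0.15). Groups overlapped in all 3 genes. Of the remaining partners of tissue forms, Cox6b1 gave -0.10 ± 0.13, Cox7a2 0.09 ± 0.15, Cox7b 0.03 ± 0.18, Cox8a 0.18 ± 0.14 and Ndufa4, a late-discovered subunit of complex IV despite its name, 0.26 ± 0.17. The supercomplex factor Cox7a2l gave -0.09 ± 0.13.

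Of the 8 tissue forms of complex IV, Cox7a1 had 53 to 114 counts per library and the other 7 had at most 52. Cox6a2, the heart and skeletal muscle form, had 1, 14 and 4 counts in the controls against 16 and 19 in the mutants. On the deposited FPKM, Cox6a2 overlapped between the groups, at 1.40 in control 2 and 1.07 in mutant 6. Its fold change was the largest of the members and the least certain (1.87 ± 0.77; 95% interval 0.22 to 3.53; edgeR adjusted p = 0.144), and it was called without control 2. Of 8 striated muscle markers, 2 passed the count filter and 1, Tnnt1, was called higher; their summed level was 5.45 to 8.23 CPM in controls against 10.9 to 14.5 CPM in mutants, with the defining markers Ckm and Myh7 at 0 to 3 counts per library. Their part in the counts of Cox6a2 was not tested. Cox7a1, also a muscle form, was at 4.46, 6.45 and 5.70 CPM in controls against 4.69 and 8.80 CPM in mutants, which overlapped (0.29 ± 0.33). It held 3.62% to 5.58% of the deposited FPKM of Cox7a1 and Cox7a2 together in controls and 4.95% and 6.52% in mutants. Cox8b had 1, 0 and 0 counts in controls and 0 and 2 in mutants.

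Ndufa4l2, the hypoxia-induced relative of Ndufa4, had 20, 21 and 23 counts in the controls against 24 and 42 in the mutants (1.03 ± 0.46; edgeR adjusted p = 0.180). In CPM both mutants were above all controls. It made up 0.192% to 0.253% of the FPKM of Ndufa4 and Ndufa4l2 in controls and 0.367% and 0.477% in mutants. Mesenchymal and smooth muscle markers moved in the same libraries: 6 of 12 were called higher (50%, against 6.11% of all genes tested). In 11 both mutants lay above all controls (91.7%, against 21.7%). Their summed level was 1309 to 1422 CPM in controls against 1933 to 2083 CPM in mutants. Of these 12 markers 0 were at 0, and their part in the level of Ndufa4l2 was not tested. Cox4i2, another form known from low oxygen, had 10, 10 and 4 counts in controls and 7 and 11 in mutants and was not tested. In CPM both of its mutants were above all controls too, at 0.62 and 0.85 against 0.55, 0.59 and 0.28.

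The testis forms had few counts. Cox6b2 had 40, 23 and 37 counts in controls and 52 and 34 in mutants. In CPM mutant 4 was at 4.60 and mutant 6 at 2.62, against at most 2.61 in controls (0.81 ± 0.44, edgeR adjusted p = 0.264). On the deposited FPKM the groups overlapped, with control 1 at 4.66 and mutant 6 at 3.61. Cox7b2 had 1, 0 and 1 counts in controls and 2 in each mutant, and Cox8c had 0 in every library, which allows up to 3 counts per library. Slc25a31, the germ cell ADP/ATP carrier, is not a member; it had 0 counts in each control and 50 and 53 in the mutants and was called higher. Of the 8 germ cell markers that include it, 6 were tested and 4 rose (66.7%, against 6.11% of all genes tested). The sum of the 8 was 103 to 191 CPM in controls against 195 and 260 CPM in mutants. The sum does not stand for the typical marker. Over the 6 tested, the median was 0.03 FPKM in controls and 8.20 FPKM in mutants. Their log2 fold changes had a median of 7.02 (-0.18 to 9.15).

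In complex V, the F1 head that makes ATP is formed mainly by Atp5a1 and the catalytic Atp5b. Atp5b was at 2054, 2147 and 2353 CPM in controls against 1852 and 2079 CPM in mutants, which overlapped (-0.15 ± 0.14). Atp5a1 was at 1110, 1395 and 1158 CPM in controls against 1159 and 1415 CPM in mutants (0.08 ± 0.15). The proton-carrying c ring is made by 3 genes for the same mature protein. Atp5g3 supplied 93.0% to 95.2% of their summed FPKM in the controls and 93.7% in both mutants. Atp5g1 supplied 4.498% to 6.62% in controls and 6.14% and 6.10% in mutants. Atp5g2 had 63, 50 and 51 counts in controls and 19 and 39 in mutants, with overlapping CPM (-0.50 ± 0.41; edgeR adjusted p = 0.469). On the deposited FPKM both mutants were below all controls, with 0.112% and 0.154% of the c ring sum against 0.349%, 0.283% and 0.277%, and the log2 fold change was -0.90 (pseudocount 1) or -1.21 (pseudocount 0.1), again without a call (limma adjusted p = 0.134 and 0.118). Counts without mutant 6 gave -0.99 and without mutant 4 -0.15. The 7 genes of the stalk and membrane part all had log2 fold changes between 0.02 and 0.39, and Atp5k was the highest, at 67.2 ± 14.2 and 87.8 ± 23.3 CPM.

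Levels of the subunits were compared per length, on the deposited FPKM. The most abundant subunit of complex I in controls was Ndufb9 (270 ± 58.9 FPKM), followed by Ndufa3 (245 ± 42.6), a difference within the spread of the libraries. In complex II it was Sdhd (230 ± 37.9) before Sdhc (178 ± 14.4). Complex III was led by Uqcr10 (617 ± 80.6) and Uqcrh (524 ± 108), complex IV by Cox6a1 (880 ± 58.2) and Cox4i1 (854 ± 44.4), and complex V by Atp5g3 (1270 ± 254) and Atp5b (1059 ± 29.5). In each of these the 2 leaders differed by less than the larger SD except for Sdhd and Sdhc, whose gap was larger than either SD. The leading gene was the same in the mutants in all 5 complexes. Control medians were 94.0 FPKM in complex I, 174 in complex II, 239 in complex III, 328 in complex IV (without tissue forms) and 252 in complex V.

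**Figure D4:**
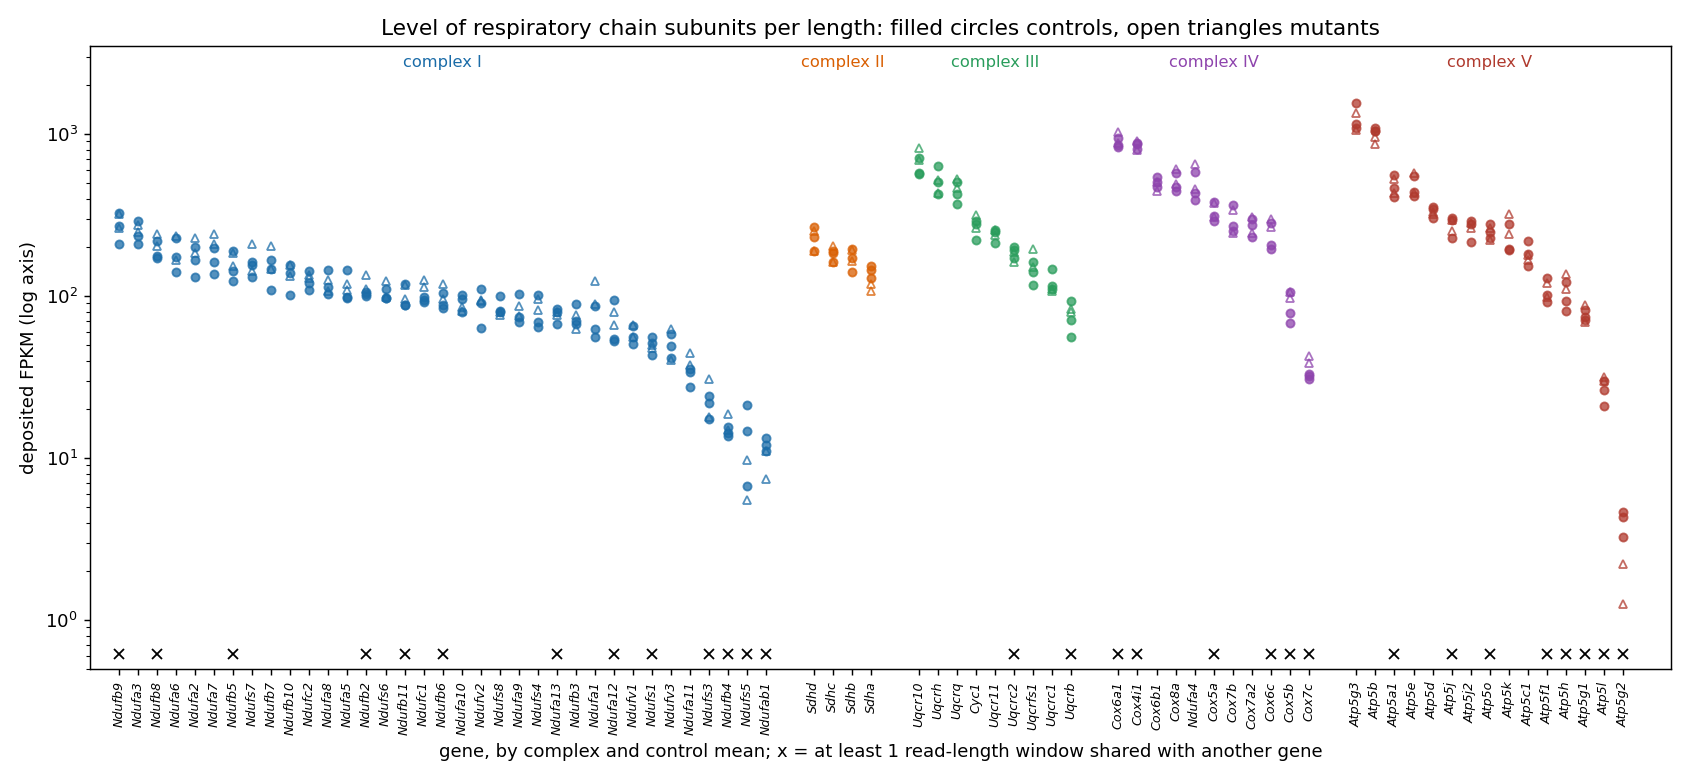
Deposited FPKM (vertical log axis) of the 75 subunits other than tissue forms, 1 of them not drawn, ordered by control mean within each complex; filled circles are the 3 controls, open triangles the 2 mutants, and a cross at the bottom marks genes with at least 1 read-length window also found in another gene. Controls and mutants lie close together along the whole order, and most genes at its low end carry a cross.

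Subunits of a complex are built in at fixed ratios, yet their FPKM spanned a wide range. In controls the highest subunit gene exceeded the lowest 22.3 times in complex I, 1.61 times in complex II, 8.41 times in complex III, 27.4 times in complex IV and 312 times in complex V. The highest and lowest of complex V, Atp5g3 and Atp5g2, are c ring genes for the same mature protein. The span of 312 is therefore not a ratio between different subunits. Sequence shared with other genes can remove reads or move them between genes, and how far depends on the counting program, not given in the sources used here. Each transcript was therefore cut into all windows of 100 bases, the read length. Each window was looked up exactly, on both strands, in GENCODE M21 transcripts of other genes. Genes were told apart by identifier only, so entries that overlap at the same place in the genome also counted as shared. Atp5o, for example, shared 19.5% of its windows with a second entry of the same symbol. Of the 75 subunits other than tissue forms, 46 shared no window. Their spans were 7.57 times in complex I, 1.61 in complex II, 4.96 in complex III, 1.88 in complex IV and 6.90 in complex V. The span in complex I rests on Ndufa11 as the lowest gene, whose deposited FPKM was low for its count. In controls Ndufa11 (545 bases) had 101 CPM and 32.3 FPKM, whereas Ndufa7 (528 bases) had 89.0 CPM and 166 FPKM. The reason was not tested.

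Of the 15 subunits that shared a window with a pseudogene, 7 had a mean under 50 FPKM, and of the other 60 only 2, Ndufa11 and Ndufs1. Atp5g2 shared 86.4% of its windows with other genes and had a mean of 3.14 FPKM, the lowest of the 75. Atp5l shared 69.0% (27.7 FPKM), Cox7c 44.4% (35.5 FPKM), Ndufb4 33.4% (15.4 FPKM) and Ndufs5 27.0% (11.6 FPKM). The share and the level did not go together throughout: Ndufab1, the next lowest after Atp5g2, shared 9.50% (10.95 FPKM), while Atp5g1 shared 57.3% (76.8 FPKM), Ndufa12 38.3% (69.5 FPKM) and Atp5h 32.7% (108 FPKM). Levels of these genes, and the c ring shares above, are therefore uncertain. The median log2 fold change was 0.09 in the 46 genes that shared no window and 0.17 in the 26 that shared some but under 50% of windows. The part of shared sequence in these values was not tested.

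Other mitochondrial lists held called genes in the same fit, in which 6.11% of all genes were called higher and 4.17% lower. Of 14 regulators of mitochondrial biogenesis tested, 2 fell and 0 rose, with a median of -0.33. Tfam, which packages and transcribes mitochondrial DNA, was at 42.9, 55.3 and 47.5 CPM in controls against 36.2 and 30.2 CPM in mutants (-0.55 ± 0.16; edgeR adjusted p = 0.0472). Gabpb2, a GABP beta subunit, fell by 0.51 ± 0.13 log2 units. Nrf1 and Gabpa (named after their values were seen, for their motifs above), with both mutants below all controls, did not pass (-0.40 ± 0.18 and -0.26 ± 0.15). Among 21 assembly factors of complexes II to V tested, 3 rose and 0 fell: Sdhaf1, for complex II, from 16.9 ± 3.19 to 32.3 ± 4.69 CPM (0.94 ± 0.19; edgeR adjusted p = 0.00757), and the copper handling factors Cox17 (0.73 ± 0.16) and Sco2 (0.54 ± 0.16). Of 5 assembly factors of complex I outside the prefix rule, edgeR called 0, and 2 were lower at an unadjusted p under 0.05.

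Electrons can also enter the chain at ubiquinone, and of 15 genes of such entry, ubiquinone synthesis and cytochrome c, 1 rose and 2 fell. Gpd2, the mitochondrial glycerol-phosphate dehydrogenase, rose from 127 ± 2.88 to 182 ± 11.9 CPM (0.52 ± 0.12). Dhodh, of pyrimidine synthesis, fell from 14.3 ± 1.31 to 7.32 ± 0.225 CPM (-0.97 ± 0.22), and Pdss1, of the ubiquinone side chain, fell by 0.58 ± 0.15 log2 units. Slc25a4, an ADP/ATP carrier, rose from 42.0 ± 2.58 to 69.8 ± 5.69 CPM (0.73 ± 0.14); with Slc25a31, 2 of the 9 carrier and channel genes rose. Of 19 citric acid cycle genes edgeR called 0, and 2 were lower at an unadjusted p under 0.05. Mitochondrial ribosomal proteins showed 4 falls among 76 tested (median -0.06), a share close to the 4.17% of all genes called lower, with Mrpl3 (-0.60 ± 0.14), Mrps15 and Mrps25 the strongest by p. Of 21 import genes 1 fell, the outer membrane subunit Tomm5 (-0.52 ± 0.15). Among 14 genes of mitochondrial stress and hypoxia, 5 rose, led by Chac1, Trib3 and Atf5 (0.99 ± 0.13), and 1 fell, Pdk1, which holds back pyruvate entry (-0.64 ± 0.15).

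The libraries as a whole held 8742131 to 13375368 reads with 1 row per gene, of which the members took 1.99% to 2.30%. Dnmt1 was at 115 ± 17.8 CPM in controls against 39.1 ± 1.93 CPM in mutants (-1.56 ± 0.16 on the log2 scale; edgeR adjusted p = 3.74e-05); Mki67 was lower too, and the areas were chosen on its protein. The epithelial markers Epcam, Cdh1 and Vil1 were at 625 CPM or more in every library, and the intestinal factor Cdx2 fell by 0.94 log2 units. Of the 10 epithelial markers, 1 was called higher and 1 lower, with log2 fold changes from -0.94 to 0.79. The 10 epithelial markers summed to 4156 to 4454 CPM in controls against 4083 and 4238 CPM in mutants. The 10 enterocyte markers summed to 20529 to 33363 CPM in controls against 42234 and 43835 CPM in mutants. Of these 10, 6 were called higher (60%, against 6.11% of all genes tested). Sums of immune markers were 163 to 175 and 279 to 326 CPM, of endothelial markers 132 to 154 and 164 to 183 CPM, of neural and glial markers 21.1 to 31.7 and 51.6 to 54.4 CPM, and of erythroid markers 29.7 to 35.5 and 36.7 to 37.2 CPM. Of the 3 erythroid markers tested, 0 were called higher and 1 lower, with log2 fold changes from -1.02 to 0.40. Of 10 proliferation markers, 8 fell (80%, against 4.17% of all genes tested), and the 10 went from 1540 to 1953 CPM to 1018 and 1005 CPM in sum. The part of these cells in the member values was not tested.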

How the data were processed

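Intervillus tissue was held in fixative for 1 h and embedded in paraffin, captured areas gave 2.3 to 33.3 ng of RNA, and libraries of 300 ng of amplified cDNA were read as single reads of 100 bases, per the labels' protocols. Raw read counts for each RefSeq transcript, and FPKM values for the same rows, were deposited by the authors. The submitters' processing notes name build mm9 and edgeR; the aligner, the counting program and use of strand are not given in sources used here. Every row names a transcript; in 41 a date stood for the symbol, and these were kept apart by transcript. All columns of per-sample values were matched to a library by name.

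The deposited counts entered edgeR 4.0.16 (R 4.3.3) unchanged with the settings that follow (default low-count filter, TMM, quasi-likelihood F-test, no covariate, 3 residual degrees of freedom), on all rows at once, after the code was tested on simulated data. P-values were adjusted by Benjamini-Hochberg over 19353 rows, with a threshold of 0.05. Standard errors were derived as log2 fold change over sqrt(F), without sign. CPM use the TMM-scaled library sizes; mean ± SD is over 3 controls and 2 mutants, and a second ± after a log2 fold change is the SE. Deposited FPKM were used for levels between genes and, as log2(FPKM + 1) or log2(FPKM + 0.1) with limma 3.58.1, as alternatives, beside DESeq2 1.42.0, limma-voom, other scalings and filters, other row choices and leaving out each library. Transcript lengths and shared windows come from GENCODE M21 and promoters from RefSeq, both on GRCm38, with no coordinates transferred to mm9. Counting errors alone are covered by limits given for 0 counts, and amplified reads are not independent molecules.

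The members and all lists were chosen with earlier results of these data known. Members with full values follow a rule: called members, the 2 of highest FPKM per complex, catalytic subunits, tissue forms with their partners, c ring genes and the uncalled member of largest change; in the other lists, at most 3 called genes in each direction. Ndufa1, Ndufa7, Ndufa11, Ndufb7, Ndufb11, Ndufab1, Ndufaf1, Uqcrc1, Uqcrc2, Cox7a2l and Atp5k fall outside it and were chosen after their values were seen. The values of 1 member that the rule names are not reported here.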

Additional observations from a re-analysis of the deposited data

How the results depend on the processing

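No paired analysis was possible because the controls are numbered 1, 2 and 3 and the mutants 4 and 6, so that the groups share no replicate number. The number of members called higher was 1 (Ndufa1) with upper-quartile factors, with no filter on low counts, with genes kept from 5 CPM upward in 2 libraries and with DESeq2. It was 0 to 8 on leaving out 1 control, the 8 without control 2, where 7.31% of all genes tested were called higher. The number called lower was 0 under every alternative run. The median over members was 0.11 to 0.15 over other scalings, filters, tests, row choices, FPKM and subunits only, and -0.01 to 0.27 on leaving out 1 library; where that left 1 mutant, it was assumed to vary like the controls. Medians by complex moved by less than the spread between libraries (a pooled SD of 0.17). That spread is close to or larger than each median, so it cannot show that the medians are stable. The median of complex II changed sign in 6 of 16 alternatives and that of complex V in 1. On leaving out 1 library the medians ran from 0.03 to 0.29 in complex I, -0.14 to 0.16 in complex II, 0.03 to 0.27 in complex III, 0.02 to 0.32 in complex IV and -0.08 to 0.21 in complex V. Over 34 named members and 539 refitted values, 7 crossed to a call (5 of Ndufa1, and Cox6a2 and Ndufa7 without control 2), 0 called values changed sign, and 42 uncalled values did. Depth limits the members with few counts, among them most tissue forms of complex IV, Atp5g2 and Ndufb4.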
